A study of Homo sapiens with 4 samples.

Results

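The genes described here are 37 genes of glycolysis, the pentose phosphate pathway and the steps that join them. They were chosen by name and not by a limit on any measured value, though earlier results of these data were known. PAS-seq reads the 3′ ends of polyadenylated RNA, and its unit is the PAS cluster (PAC), a group of neighbouring cleavage sites. A PAC was given to a member gene when its dominant site, the position with the most tags, lay within the span of that gene on the same strand in GENCODE 44 (build GRCh38). By this rule 33 of the 37 members held 47 of the 17627 PACs listed in all.

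The 4 libraries came from KYSE30 and TE-1, established cell lines of human oesophageal squamous cell carcinoma (ESCC). In each line, 1 library came from cells exposed to l-lactate (20 mM, 24 h) and 1 from controls (PBS in the labels), so the question is how member levels and cleavage sites differed with l-lactate and between the lines. The cell line field of the control samples reads KYSE32 and TE-3, whereas their titles and the paper name KYSE30 and TE-1, and the titles were followed. With 1 library in each group there is no spread between replicates and no test was run within a line, and every interval below is a 95% interval for counting error only. PCR copies of a molecule cannot be told from separate molecules, so these intervals are if anything too narrow.

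Glycolysis splits glucose into pyruvate and yields ATP and NADH, and lactate is made from pyruvate at its end. The pentose phosphate pathway branches off at glucose 6-phosphate, yields NADPH and ribose 5-phosphate, and returns its sugars to glycolysis through transketolase and transaldolase. Many tumours take up much glucose and release lactate even where oxygen is present, and many of these steps have isoenzymes whose balance differs between tissues.

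The libraries held 7174993 tags (KYSE30, l-lactate), 7425554 (KYSE30, control), 8468959 (TE-1, l-lactate) and 10393798 (TE-1, control), and values in sets of 4 below keep this order. Levels are TPM, the tags of a PAC per 1000000 tags of the library, summed over the PACs of a gene. A tag stands for a transcript end, so no gene length enters when a gene's level is set beside that of another. Such a comparison is limited where a PAC lies past the annotated gene end or where reads may match pseudogenes. TALDO1 and PGAM1, described below, are such cases. The lowest listed TPM was 1.06 to 1.12 (8 to 11 tags), and a PAC that a library does not list was taken as 0 in sums. Fewer cells and less RNA per cell cannot be told apart in such bulk samples. Of the squamous markers, KRT5, KRT14 and DSG3 had no listed PAC in any library. KRT6A and SOX2 were listed in KYSE30 alone and KRT17 in TE-1 alone, in both libraries of the line in each case, so the libraries paired as their titles say. The epithelial KRT8 and KRT18 were listed throughout. CDH1, a further epithelial marker, stood at 228 TPM with l-lactate and 204 TPM in the control of KYSE30. In TE-1 its level was 1.30 TPM with l-lactate, and the PBS library held no CDH1 PAC. EPCAM stood at 563 to 635 TPM in KYSE30 and 30.7 to 36.4 TPM in TE-1, and 0 of the 4 blood and endothelial markers were listed. PACs up to 24 nt past the gene end gave TP63 32.6 and 24.2 TPM in KYSE30 alone, and the mesenchymal VIM 6.69, 5.66, 982 and 991 TPM. Of the other mesenchymal or stromal markers, COL1A1 (4.84 and 5.39 TPM) and PDGFRB (6.85 and 4.14 TPM) were listed in TE-1 alone. COL1A2 was listed in no library.

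Polyadenylation signals stood at member sites about as often as at all 3′ UTR sites. Of their 47 PACs, 43 lay in 3′ UTRs, 3 in introns and 1 in a noncoding exon. The canonical signal AATAAA stood within 50 nt before the dominant site in 29 of the 43 3′ UTR PACs (67.4%, against 66.7% of all 13590 3′ UTR PACs), and ATTAAA in 8 more (18.6% against 20.02%). TGTA, the DNA form of the UGUA motif that NUDT21 binds, stood in the 100 nt upstream in 26 of the 43 (60.5% against 58.1%). Motifs were read on the transcript strand only, and a match is no proof of use. ATTAAA was counted whether or not AATAAA was present. No member PAC held both, but some of the other PACs did. Either signal stood in 37 of the 43 (86.0%, against 83.5% of all 3′ UTR PACs). The sites that the results below turn on are printed here, with the 30 nt that end at the dominant site, 5′ to 3′ on the transcript strand, from the GRCh38 reference. Capitals mark either of these signals, or a known variant that differs from the canonical signal at a single base.

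The 3 sites of PGM2L1, which was called less distal with l-lactate in both lines, lie on the minus strand at chr11:74334274-74334303 (proximal), chr11:74333676-74333705 (middle) and chr11:74330320-74330349 (distal). The proximal window holds a variant signal and the others AATAAA.
PGM2L1 proximal: gactGATAAAcaaaaatgaagctaaaatga
PGM2L1 middle: agtagggAATAAActgtgtcccacctgttt
PGM2L1 distal: agtgttatcagtAATAAAcaggtctcttca

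The PDK3 sites lie on the plus strand of chromosome X. The proximal PAC has its dominant site at the end of chrX:24539345-24539374 with l-lactate in TE-1 and of chrX:24539800-24539829 in the TE-1 control, and the distal PAC ends at chrX:24550437-24550466.
PDK3 proximal, l-lactate: tcttccACTAAAgtagtaactttttaatga
PDK3 proximal, control: tgtctgttgATTAAAgcattcgaaatgtta
PDK3 distal: tcagaacAATAAAatggtagttgtgattca

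PFKFB2 (plus strand, chr1:207076911-207076940 and chr1:207077788-207077817) and TKT (minus strand, chr3:53225649-53225678 and chr3:53224713-53224742) are shown because the lines used their sites differently.
PFKFB2 proximal: gtctATTAAAtgtgtctaacaaaggaagga
PFKFB2 distal: taAATAAAattgttgagtaacttgaaccta
TKT proximal: aggggtaAATATAtgttttgagaaaaatga
TKT distal: cgtctggagagAATAAAcctgtcaaagcca

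PGK1 (plus strand, chrX:78126244-78126273 and chrX:78126797-78126826) is the most abundant member with a second 3′ UTR site, and its minor site carries ATTAAA in place of AATAAA.
PGK1 proximal: aaacAATAAAagtgtccattgaaaccgtga
PGK1 distal: tagtatgctatgATTAAAtttacttatgta

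The members together took 10944 TPM in KYSE30 cells with l-lactate, 10708 TPM in control KYSE30 cells, 12043 TPM in TE-1 cells with l-lactate and 12430 TPM in control TE-1 cells. These sums are 1.09%, 1.07%, 1.20% and 1.24% of all tags. The log2 ratio of the sums, l-lactate over control, was 0.03 in KYSE30 (0.02 to 0.05) and -0.05 in TE-1 (-0.06 to -0.03), so the sum was slightly higher with l-lactate in KYSE30 and slightly lower in TE-1. TE-1 exceeded KYSE30 1.16-fold between the controls and 1.10-fold between the l-lactate libraries. ENO1, GAPDH, ALDOA, PGK1 and PKM held 73.4 to 76.2% of the member tags in every library.

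**Figure D1:**
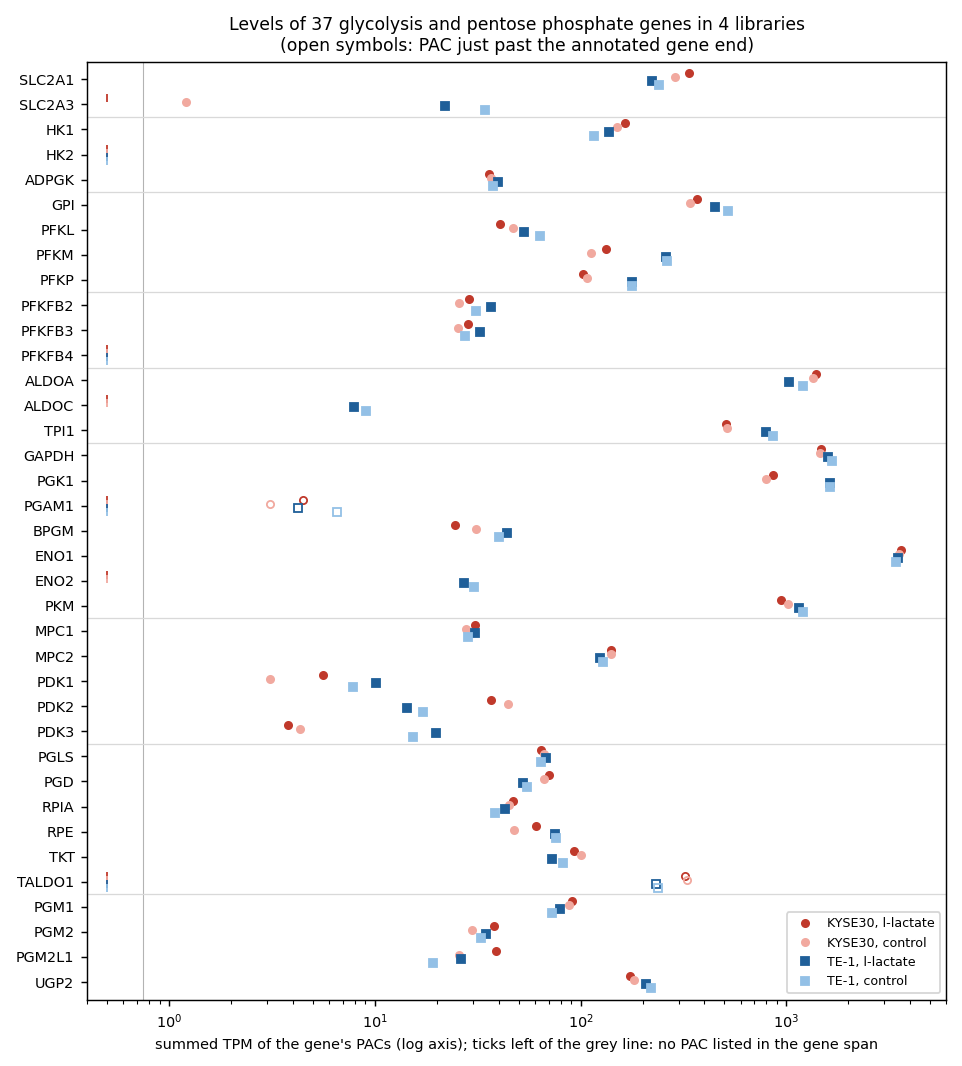
Summed TPM of each member (log axis) in the 4 libraries, ordered by step of the pathway; circles are KYSE30, squares TE-1, dark symbols l-lactate and pale symbols control. ENO1 is highest at 3414 to 3613 TPM, the 4 symbols of most members lie close together, and SLC2A3, ALDOC, ENO2, PDK2 and PDK3 show the widest gaps between the lines.

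The level of a gene was called different with l-lactate from a 1.5-fold change in TPM + 1, among genes with a mean of at least 5 TPM over the 4 libraries. This left 32 members of 9164 protein-coding genes, since 4 members had no PAC and ALDOC had a mean of 4.24 TPM. In KYSE30, 1 member was called higher (PDK1) and 1 lower (SLC2A3), where 1.87% of all genes tested were called higher and 1.79% lower. In TE-1, 0 members were called higher and 1 lower (SLC2A3), where the background was 2.4% higher and 1.28% lower. The median log2 ratio of the 32 members was 0.04 in KYSE30, against 0.00 over all genes, and -0.01 in TE-1, against 0.03 over all genes. Taking the lines as a pair of repeats (limma on log2(TPM + 1) over all 9164 genes, line as block, 1 residual degree of freedom, Benjamini-Hochberg adjustment, a fit added after the data were seen), 0 members passed an adjusted p of 0.05, where 0.0327% of all genes passed as higher and 0.0109% as lower. At an unadjusted p under 0.05 there were 5 members (SLC2A3, PFKL, PDK1, HK1 and PGM2L1), beside 10.8% of all genes. In this limma fit SLC2A3 had the smallest adjusted p among members (0.189, log2 ratio -0.89, SE 0.23), followed by PGM2L1 (0.21, log2 ratio 0.50, SE 0.13), each in the same direction in both lines. With a pseudocount of 5 TPM, PGM2L1 passed in limma as higher (adjusted p 0.0193). At that setting 114 of all 9164 genes passed as higher and 53 as lower. Apart from those called, log2 ratios ran from -0.32 (BPGM) to 0.58 (PGM2L1) in KYSE30 and from -0.25 (PFKL) to 0.43 (PGM2L1) in TE-1.

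Counting error leaves smaller differences visible in abundant genes. The counting interval is that of the tag ratio without the pseudocount, so it is centred slightly farther from 0 than the printed log2 ratio of low genes. The interval of the l-lactate over control ratio lay above 0 for 10 members and below 0 for 4 in KYSE30 (background 12.7% and 11.2% of genes), and above 0 for 6 and below 0 for 9 in TE-1 (background 18.7% and 11.5%). It lay off 0 on the same side in both lines for 5 members (7.05% of all genes). HK1, ENO1 and PGM2L1 were on the higher side, and SLC2A3 and PKM on the lower. The sides were opposite for SLC2A1 and GPI (2.4% of all genes).

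**Figure D2:**
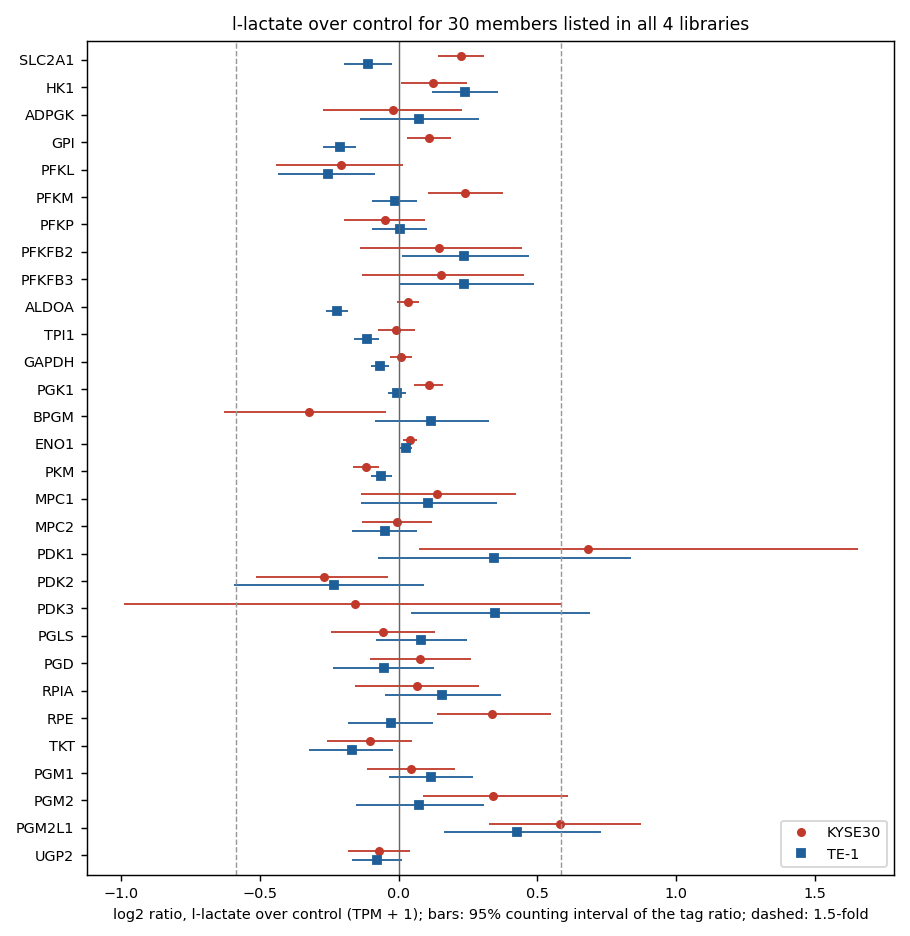
Log2 ratio of l-lactate over control for the 30 members listed in all 4 libraries (red circles KYSE30, blue squares TE-1), with 95% counting intervals of the tag ratio (no pseudocount) as bars and 1.5-fold as dashed lines. PDK1 in KYSE30 is the only point past a dashed line, and PGM2L1 lies to the right of 0 in both lines.

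The glucose transporters carry glucose across the plasma membrane. SLC2A1 (GLUT1), the common form, stood at 336, 288, 222 and 240 TPM. The l-lactate library was thus the higher in KYSE30 (log2 ratio 0.22, 0.14 to 0.31) and the lower in TE-1 (-0.11, -0.20 to -0.02), and both KYSE30 libraries lay above both of TE-1. SLC2A3 (GLUT3), a high-affinity form, was not listed in KYSE30 with l-lactate and stood at 1.21, 22.0 and 34.4 TPM in the other libraries. The log2 ratio in TE-1 was -0.63 (-0.91 to -0.39). The KYSE30 call rests on 9 tags of a single intronic PAC in the control, 42200 nt upstream of the stop codon, and no fold is given for it. That intronic PAC also held 11.6 of the 22.0 TPM and 17.8 of the 34.4 TPM in TE-1. About as many of the tags counted for SLC2A3 thus lay there as in its 3′ UTR. The PAC was given to SLC2A3 by the annotated span alone, and whether its tags come from SLC2A3 transcripts was not tested. Of the tags of the transporter pair, SLC2A3 held 8.99% in the treated TE-1 library and 12.6% in its control. These shares include the intronic PAC, which held 98 of the 186 SLC2A3 tags with l-lactate and 185 of the 358 in the control.

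Glucose is phosphorylated by hexokinases. HK1 was between 116 and 164 TPM, with log2 ratios of 0.13 (0.01 to 0.25) in KYSE30 and 0.24 (0.12 to 0.36) in TE-1. The ADP-dependent ADPGK held 36.0 to 39.7 TPM in all libraries. No PAC was listed within HK2, the form often raised in tumours, or within 5 kb past its end.

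At the hexose phosphate steps, GPI, which interconverts glucose 6-phosphate and fructose 6-phosphate, stood at 368, 341, 449 and 520 TPM. Like SLC2A1 it was higher with l-lactate in KYSE30 (log2 ratio 0.11, 0.03 to 0.19) and lower in TE-1 (-0.21, -0.27 to -0.15). Its PAC also lies in an intron of an overlapping gene on the same strand, to which the tags could belong in part. Phosphofructokinase, which commits sugar to glycolysis, is a tetramer of the subunits PFKM, PFKP and PFKL. PFKM was 48.1% and 42.3% of the family's tags in KYSE30 and 53.0% and 52.2% in TE-1, and PFKP 37.2%, 40.04%, 36.2% and 35.2%. PFKM thus took a larger share with l-lactate in KYSE30 (intervals 45.9 to 50.3% against 40.1 to 44.5%), with a log2 ratio of 0.24 (0.11 to 0.38). The intervals of the PFKM share in TE-1 overlapped. The PFKP PAC also lies in an intron of a noncoding gene on the same strand.

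The PFKFB enzymes make and break fructose 2,6-bisphosphate, the activator of phosphofructokinase. PFKFB2 stood at 28.6, 25.7, 36.7 and 31.1 TPM, and PFKFB3 ranged from 25.5 to 32.6 TPM. Both were higher with l-lactate in each line, with log2 ratios of 0.15 in KYSE30 for each, where the interval held 0, and of 0.23 and 0.24 in TE-1, where it did not. No PAC was listed within PFKFB4 or within 5 kb past its end.

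Aldolase and triose phosphate isomerase split the hexose and interconvert the triose products. ALDOA stood at 1387, 1355, 1035 and 1208 TPM, a log2 ratio of 0.03 in KYSE30, whose interval held 0, and -0.22 in TE-1 (-0.26 to -0.18). A readthrough gene shares the 3′ UTR that holds this PAC. TPI1 stood at 511, 514, 793 and 859 TPM and the interval of its ratio lay below 0 in TE-1 (-0.12, -0.16 to -0.07) and held 0 in KYSE30 (-0.01, -0.07 to 0.06). ALDOC, the brain-type aldolase, was not listed in KYSE30 and stood at 7.91 and 9.04 TPM in TE-1.

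The payoff steps yield ATP and NADH. GAPDH, which reduces NAD, stood at 1474, 1466, 1593 and 1668 TPM, and its log2 ratio in TE-1 was -0.07 (-0.10 to -0.03). PGK1, the first ATP-forming step, stood at 860, 797, 1623 and 1629 TPM. It was higher with l-lactate in KYSE30 (0.11, 0.06 to 0.16) and nearly equal in TE-1 (interval -0.04 to 0.03). An upstream PAC at 11.2 to 14.2 TPM counted in these sums also lies in the 3′ UTR of ATP7A, to which its tags may belong. ENO1, the common enolase and the most abundant member, stood at 3613, 3515, 3480 and 3414 TPM, and its ratio was above 0 in both lines by 0.04 and 0.03. PKM, the pyruvate kinase of most tumours, stood at 942, 1022, 1151 and 1203 TPM and was the lower with l-lactate in each line (-0.12 and -0.06). ENO2, the neuronal enolase, was not listed in KYSE30 and stood at 27.2 and 30.2 TPM in TE-1. BPGM, which makes 2,3-bisphosphoglycerate, had a log2 ratio of -0.32 in KYSE30 (-0.63 to -0.05) and 0.12 in TE-1 (-0.09 to 0.32).

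Pyruvate enters the mitochondrion through the MPC1 and MPC2 carrier. MPC2 stood at 140, 141, 124 and 129 TPM, and MPC1 held log2 ratios of 0.14 and 0.10 with intervals that include 0. The PDK kinases switch off pyruvate dehydrogenase and so keep pyruvate from oxidation. PDK1 stood at 5.58, 3.10, 10.2 and 7.79 TPM. Its log2 ratio was 0.68 in KYSE30 (0.85 without the pseudocount, with an interval of 0.07 to 1.66) and 0.34 in TE-1 (-0.07 to 0.84), and 40 against 23 tags lie behind the KYSE30 call. PDK2 stood at 36.8, 44.6, 14.4 and 17.1 TPM and was the lower with l-lactate in both lines (-0.27 and -0.23), with an interval that excludes 0 in KYSE30 alone. PDK3 stood at 3.76, 4.31, 19.7 and 15.3 TPM, and its ratio of 0.35 in TE-1 had an interval of 0.04 to 0.69.

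The lines differed in the balance of the kinases, although PDK2 had the largest share in both controls. PDK2 held 79.8% and 85.8% of the tags of the 3 kinases in KYSE30 and 32.5% and 42.6% in TE-1. PDK3 held 8.16% and 8.29% in KYSE30 and 44.5% and 38.0% in TE-1. The exact binomial intervals of the lines do not overlap for either kinase. PDK3 was the largest of the family in TE-1 with l-lactate (interval 39.4 to 49.7%, against 27.8 to 37.5% for PDK2), while in the TE-1 control the intervals of PDK2 and PDK3 overlapped.

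**Figure D3:**
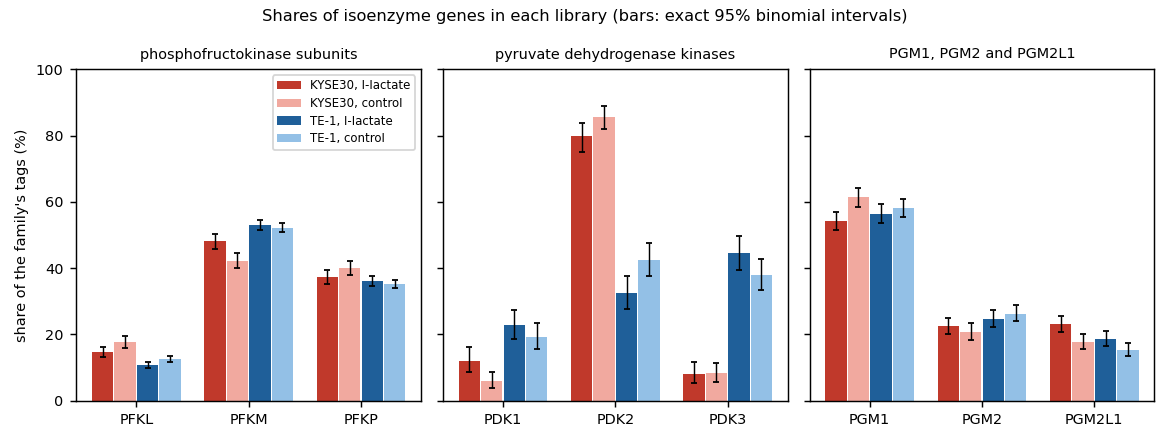
Share of each gene in the tags of its family (percent, axis from 0) in the 4 libraries, with exact 95% binomial intervals. PDK2 takes 79.8 to 85.8% of the kinase tags in KYSE30 and 32.5 to 42.6% in TE-1, whereas PFKM, at 42.3 to 53.0%, and PGM1 lead their families in every library. The intervals of PFKM and PFKP overlap in the KYSE30 control.

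In the pentose phosphate pathway, PGLS and PGD of the oxidative arm ranged from 63.97 to 68.01 TPM and from 52.8 to 70.1 TPM. RPE, which interconverts ribulose and xylulose 5-phosphate, stood at 60.5, 47.7, 74.7 and 76.3 TPM, with a log2 ratio of 0.34 in KYSE30 (0.14 to 0.55) and -0.03 in TE-1 (-0.18 to 0.12). RPIA, which makes ribose 5-phosphate, ranged from 38.6 to 47.1 TPM. TKT, transketolase, stood at 93.4, 100.5, 73.0 and 82.2 TPM and was lower with l-lactate in both lines (-0.10, -0.26 to 0.05, and -0.17, -0.32 to -0.02). The 5 members of this pathway with a PAC in span summed to 335, 326, 312 and 316 TPM.

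Around glucose 1-phosphate, PGM2L1, which makes the cofactor glucose 1,6-bisphosphate, stood at 38.7, 25.6, 26.2 and 19.2 TPM. The l-lactate library was the higher in each line, by 0.58 (0.33 to 0.87) in KYSE30 and 0.43 (0.16 to 0.73) in TE-1. The KYSE30 value misses the 1.5-fold limit (0.585 on this scale), and with a pseudocount of 0.1 TPM it passes. Of the tags of the PGM genes, PGM2L1 held 23.1% with l-lactate and 17.8% without in KYSE30, and 18.7% and 15.4% in TE-1. PGM2 had a log2 ratio of 0.34 in KYSE30 (0.09 to 0.61) and 0.08 in TE-1 (-0.15 to 0.31). PGM1 ranged from 72.8 to 90.9 TPM and UGP2, which makes UDP-glucose, from 174 to 220 TPM.

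Between the lines, members were called from a 2-fold difference in the same direction both between the controls and between the l-lactate libraries. TE-1 was higher for 3 of the 32 members (SLC2A3, ENO2 and PDK3) and lower for 1 (PDK2), where 13.5% and 14.7% of all genes tested were called. SLC2A3, ENO2 and PDK3 stayed under 5 TPM in both KYSE30 libraries and passed the mean of 5 TPM through TE-1. The filter thus favoured their calls as higher in TE-1, and with a filter at 20 TPM only PDK2 was called. The log2 ratio of PDK3 was 1.62 between the controls and 2.12 between the l-lactate libraries, and that of PDK2 was -1.33 and -1.29. PFKM (1.21 and 0.96), PDK1 (1.10 and 0.76) and PGK1 (1.03 and 0.92) passed 2-fold between the controls and missed it between the l-lactate libraries. In limma with the treatment as block, 16 members were called higher in TE-1 and 8 lower at an adjusted p of 0.05, where 37.2% and 36.8% of all genes were called. That fit treats the l-lactate and control libraries of a line as its repeats. Both TE-1 libraries lay above both KYSE30 libraries for 17 members and below them for 10, beside 43.1% and 42.5% of all genes, and the ranges of the lines overlapped for PFKFB3, MPC1, PGLS, PGM2 and PGM2L1. GPI, PFKL, PFKM, PFKP, TPI1, GAPDH, PGK1 and PKM were on the higher side in TE-1, and SLC2A1, HK1, ALDOA, ENO1, PGD, RPIA and TKT on the lower.

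**Figure D4:**
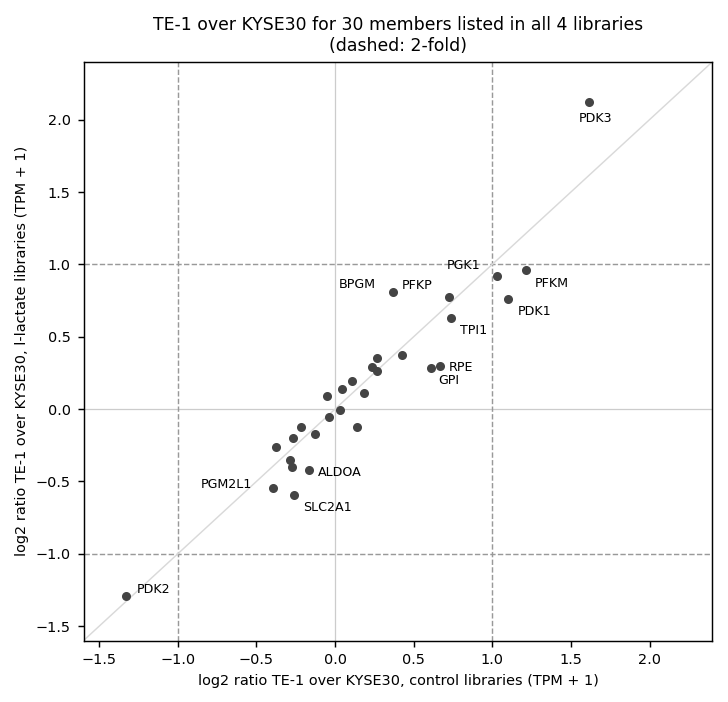
Log2 ratio of TE-1 over KYSE30 for the 30 members listed in all 4 libraries, between the controls (horizontal) and between the l-lactate libraries (vertical), with 2-fold as dashed lines and equality as a grey line. PDK3 (1.62 and 2.12) and PDK2 (-1.33 and -1.29) alone pass 2-fold on both axes.

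Where a gene had 2 or more 3′ UTR PACs above 5 TPM in a library of the line, distal usage was taken as the percentage of its 3′ UTR tags that fell in the PAC farthest downstream. Of the members tested for level, 8 (25%) had 2 or more 3′ UTR PACs, against 29.7% of all genes tested. Distal usage could be measured for 5 members in KYSE30 (MPC2, PGK1, PGM2L1, RPE and TKT) and for 7 in TE-1 (those and PDK3 and PFKFB2). From a change of 10 percentage points, 1 member was called shortened with l-lactate in KYSE30 (PGM2L1) and 2 in TE-1 (PGM2L1 and PDK3), and 0 were called lengthened. Over all genes measured, 5.77% were called shortened and 3.22% lengthened in KYSE30, and 5.16% and 6.19% in TE-1.

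PGM2L1 was called in both lines. Its PACs lie 2381, 2979 and 6335 nt past the last codon. The proximal PAC held 4.74, 3.37, 6.14 and 2.50 TPM, the middle PAC 10.7, 3.77, 8.86 and 6.25 TPM, and the distal PAC 23.3, 18.5, 11.2 and 10.5 TPM. Each PAC was the higher with l-lactate in each line, and the upstream ones more so than the distal one. In KYSE30, where the proximal PAC stayed under 5 TPM and was left out, distal usage was 68.4% with l-lactate and 83.0% in the control, a difference of -14.6 percentage points (-22.4 to -6.10). In TE-1 it was 42.8% and 54.5%, a difference of -11.7 points (-21.0 to -2.16). With all 3 PACs counted, the KYSE30 shares were 60.1% and 72.1%. In TE-1 the proximal PAC passed the 5 TPM limit through its l-lactate library alone, and in KYSE30 the middle PAC did so. A PAC admitted in this way favours a call of shortened, and the sets of PACs differed between the lines. At a PAC minimum of 1 TPM, which all 3 PACs pass in every library, PGM2L1 was called in both lines. At a minimum of 10 TPM it was called in KYSE30 alone.

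PDK3 had its proximal PAC 5305 nt (at its TE-1 site with l-lactate) and its distal PAC 16397 nt past the last codon. The proximal PAC was not listed in KYSE30 with l-lactate and held 1.08, 9.21 and 5.00 TPM in the other libraries, and the distal PAC held 3.76, 3.23, 10.5 and 10.3 TPM. In TE-1 the proximal PAC was thus the one that differed, and distal usage was 53.3% with l-lactate and 67.3% in the control, a difference of -14.0 points (-24.2 to -3.37). In KYSE30 both PACs stayed under the limit, with 27 and 32 tags in all.

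The other members with several sites differed by less than 10 points with l-lactate. In RPE, whose middle site held 80.2 to 89.4% of its tags, distal usage was 11.5% against 8.47% in KYSE30, a difference of 3.05 points (-1.25 to 7.21), and 10.6% against 6.18% in TE-1, a difference of 4.40 points (1.48 to 7.44). Its most proximal site was listed in 3 libraries and not in TE-1 with l-lactate. PGK1 used its distal site for 11.7% and 11.5% in KYSE30 and 12.8% and 12.9% in TE-1, and MPC2 used its own for 3.58 to 4.28% in the 4 libraries.

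The lines differed more in site choice than the treatments did for some members. PFKFB2 used its distal PAC for 93.7% and 92.7% of tags in KYSE30 and 65.9% and 64.4% in TE-1, a difference of -28.3 points between the controls (-34.4 to -21.5) and -27.7 between the l-lactate libraries (-33.8 to -21.2). The proximal PAC of PFKFB2 held 1.81 and 1.89 TPM in KYSE30 and 12.5 and 11.1 TPM in TE-1, while the distal PAC ranged from 20.01 to 26.8 TPM. PGM2L1 was also less distal in TE-1, by a difference of -17.6 points between the controls and -17.3 between the l-lactate libraries. These were the 2 of 7 members measured that were called in both treatments, where 16.1% of all genes measured were called less distal in TE-1 and 6.5% more distal. TKT used its distal site for 30.1% and 27.5% in KYSE30 and 18.6% and 20.3% in TE-1, which reached 10 points between the l-lactate libraries only (-11.5, -16.1 to -6.86). So did PDK3, at -46.7 points between the l-lactate libraries (-54.3 to -32.2) and -7.70 between the controls (-21.7 to 10.7), with 27 and 32 tags behind the KYSE30 shares.

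**Figure D5:**
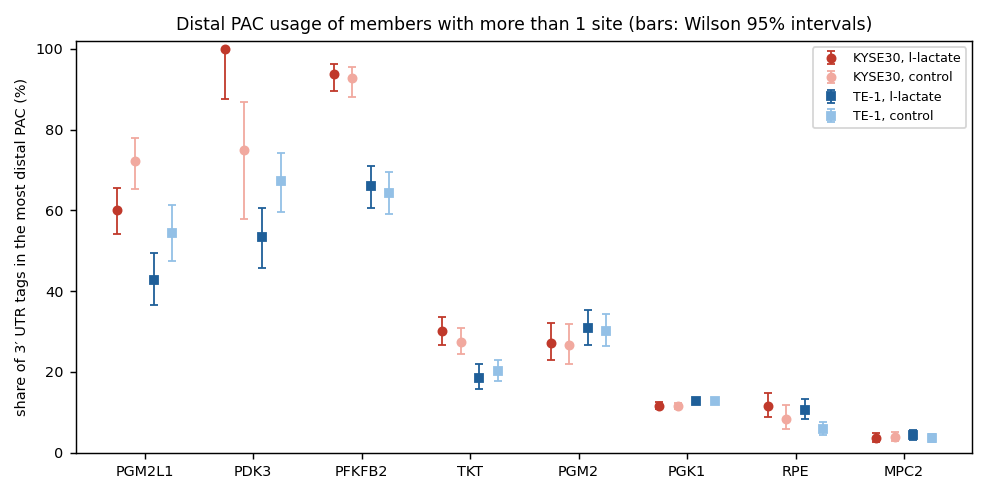
Share of 3′ UTR tags in the most distal PAC (percent, axis from 0) of 8 members in the 4 libraries, all listed PACs counted, with Wilson 95% intervals. PGM2L1 is lower with l-lactate in both lines, PFKFB2 lies near 93% in KYSE30 and 65% in TE-1, and PGK1 and MPC2 hardly vary. The PGM2 value includes a PAC that ends 1 nt past the annotated gene.

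Within a PAC the most used cleavage position seldom changed with l-lactate. The dominant site was the same with and without l-lactate in 31 of 32 member PACs in KYSE30 and 39 of 40 in TE-1, among PACs above 5 TPM in both libraries (94.97% and 95.5% of all PACs). It moved by more than 24 nt in 0 member PACs in KYSE30 and 1 in TE-1, where 1.43% and 1.24% of all PACs moved that far. The PAC that moved was the proximal PAC of PDK3, by 455 nt upstream with l-lactate. Its 2 sites are printed above, and the dominant one held 32 of 78 tags with l-lactate and 42 of 52 in the control. BPGM moved by 6 nt in KYSE30, between neighbouring sites that share one AATAAA.

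The 4 members without a PAC in span fall into a pair whose PAC lies just past the annotated end and a pair with none nearby. TALDO1, transaldolase, has a PAC whose dominant site lies 1 to 12 nt past the end of the gene, at 320, 330, 233 and 238 TPM. Counted, it would be the most abundant pentose phosphate member. PGAM1, phosphoglycerate mutase, has a PAC 1 nt past its end at 4.46, 3.10, 4.25 and 6.54 TPM, a low level beside its neighbours GAPDH, PGK1 and ENO1. PGAM1 has 13 named pseudogenes. None of the 108 pseudogenes named for 13 of the members held a PAC, and how reads that match several places were treated is not given in the sources used here. HK2 and PFKFB4 have none. Over all genes, 508 PACs lie 1 to 24 nt past a gene end, and for 328 of those genes no PAC lies in the span.

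Of 44 further genes of these pathways, 26 were listed and 25 passed the mean of 5 TPM. With l-lactate 1 was called higher in KYSE30 (ENO3, at 2.93 TPM against not listed) and 0 in TE-1, and 0 were called lower. Over all genes tested, 1.87% were called higher and 1.79% lower in KYSE30, and 2.4% and 1.28% in TE-1. Between the lines, 5 of the 25 were called higher in TE-1 (ENO3, PRPS1, PRPS2, PDHA1 and DLAT) and 3 higher in KYSE30 (H6PD, PDP1 and PYGB). Over all genes tested, 13.5% were called higher in TE-1 and 14.7% lower. ENO3 stayed under 5 TPM in KYSE30 and H6PD in TE-1. Each thus passed the mean of 5 TPM through the line where it was called higher. ENO3, the muscle enolase, stood at 182 and 137 TPM in TE-1 and 2.93 TPM in KYSE30 with l-lactate, not listed in its control. Of the 14 isoenzymes of other tissues it was the only one listed. PDHA1, the catalytic subunit of pyruvate dehydrogenase on which the PDK kinases act, stood at 101, 95.6, 398 and 403 TPM, and PDP1, the phosphatase that opposes those kinases, at 67.3, 54.4, 23.4 and 19.7 TPM.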

How the data were processed

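PAS-seq was done on 4 libraries, l-lactate and control cells of KYSE30 and TE-1. Per the methods of the paper, reads were trimmed with FASTX-Toolkit, aligned to GRCh38 (GRCh38.p14 in the submitters' processing notes) with HISAT2 and turned into PACs with CAGEr, low sites were dropped and nearby PACs joined. The deposited values, which the authors name TPM, are RPM: tags of a PAC per 1000000 tags of its library, without length correction. The deposited positions are in nt. Low sites were thus removed before deposit, so a PAC not listed is not a measured absence.

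PACs of the 4 tables were joined by number and placed on GENCODE 44 by dominant site. The depth was derived from the smallest spacing of the values, which then came out as whole tags (100% within 0.1 tag). Levels used log2(TPM + 1), a mean of at least 5 TPM and folds of 1.5 (l-lactate) and 2 (lines). A fold on this scale understates the change of low genes. Intervals are exact binomial for ratios and families, Wilson for site shares and Newcombe for differences of shares, all at 95%. Listed PACs hold 92.5 to 93.1% of tags. With 1 library per group no test was run within a line. A limma 3.58.1 fit (R 4.3.3, with trend) on log2(TPM + 1) over all 4 libraries, with line and treatment as terms, was added after the data were seen and leaves 1 residual degree of freedom. The members and lists were chosen with earlier results of these data known. Values in all libraries were given for members called, measured for distal usage, moved or among the 8 most abundant, and for some further members seen to matter. Distal usage between lines and the 24 nt allowance past gene ends were added after the data were seen. Alternatives changed the pseudocount, filter, fold, scaling, annotation rule, PAC minimum and windows. Scripts were tested on simulated data. Figures were drawn with matplotlib 3.10.9 and values computed with SciPy 1.17.1, pandas 2.3.3 and NumPy 2.4.6 under Python 3.11.15.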

Additional observations from a re-analysis of the deposited data

Results flagged for a closer look

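SLC2A1 had a log2 ratio of l-lactate over control of 0.22 in KYSE30 and -0.11 in TE-1, and GPI one of 0.11 in KYSE30 and -0.21 in TE-1, so the single l-lactate library lay above its control in one line and below it in the other. The difference between the lines was not tested. Outside the annotated spans, a PAC 3081 nt past the end of PGK1 stood at 2.37 TPM with l-lactate and 1.62 TPM in the control of KYSE30, and at 1.18 TPM with l-lactate and not listed in the control of TE-1. A PAC 1 nt past the end of PGM2 stood at 14.2 and 10.8 TPM in KYSE30 and at 15.5 and 14.2 TPM in TE-1, each time the l-lactate library first.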

How the results depend on the processing

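Pairing the libraries by line in limma gave 0 members called with l-lactate, and 0 with a pseudocount of 0.1 TPM or no filter. With a pseudocount of 5 TPM it gave 1 (PGM2L1), where 114 of all 9164 genes passed as higher and 53 as lower. Between the lines, with the treatment as block, limma called 24 members, with 22 to 25 under these alternatives. Of all 9164 genes, 3410 passed as higher in TE-1 and 3373 as lower. The numbers were 3305 and 3275 with a pseudocount of 0.1 TPM, and 3498 and 3441 with 5 TPM. With no filter, 3724 and 3840 of 10807 genes passed. Replicate numbers pair nothing here, since each group is 1 library. For level with l-lactate, the count of members called was 2 in KYSE30 and 1 in TE-1. It became 0 and 0 with a pseudocount of 5 TPM and 0 and 0 with a filter at 20 TPM, 6 and 4 at the lower fold tried, and 1 and 0 at 2-fold, and in KYSE30 1 with only 3′ UTR PACs. Between the lines the count was 4, with 1 at a filter of 20 TPM, 9 at 1.5-fold and 2 at 4-fold. For distal usage the count was 1 in KYSE30, with 2 at a PAC minimum of 1 TPM and 0 at 20 points, and 2 in TE-1, with 0 at a PAC minimum of 10 TPM and 0 at 20 points. PGM2L1 kept its call in KYSE30 at a minimum of 10 TPM. The count of moved dominant sites was 1, and 2 for any move. Taken at the midpoint of the quantiles it was 1 too, but another PAC, that of PDK2 in KYSE30, 156 nt downstream. The summed TPM, in the order used above, became 11285, 11053, 12303 and 12692 with PACs up to 5 kb past gene ends, and 9470, 9242, 10451 and 10762 without GAPDH. The other alternatives kept their counts within 1.5 times. For level and distal usage, no share of all genes is given at the alternative settings. These member counts thus have no background beside them. The cause of these changes was not tested. Low tag numbers limit PDK1, SLC2A3 and PDK3.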
